A study of Mus musculus with 6 samples.

Results

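Type I interferon-stimulated genes were followed across the immune cells of healthy mouse brain and of early gliomas. The set holds 38 genes, listed by name as textbook targets of type I interferon with earlier results of these data known, out of the 27378 gene IDs of the count table; all 38 were found there, each under 1 gene ID. Cells positive for CD45, the surface phosphatase of blood-derived cells and microglia, were sorted from mouse brain and profiled with 10x Genomics 3′ v3 chemistry, which counts transcripts by a molecular tag at their 3′ end. There were 6 libraries in 3 groups of 2. Healthy brain was wild type for Trp53 and Rbpj. Control tumours carried a Trp53 knockout with wild-type Rbpj, and Rbpj-deleted tumours carried knockouts of both genes, so every tumour library shares the Trp53 loss and the 2 tumour groups differ by Rbpj, the DNA-binding factor of Notch signalling. Early gliomas had been found by GFP from a Cre-reporter allele (Rosa-CAG::GFP) and micro-dissected, whereas the healthy samples were brain. The driver of Cre, and which cells other than the GFP-positive tumour cells carried the deletions, are not given in the sources used here; age and sex are likewise not given. The series describes pools of animals (9 healthy brains, 15 control tumours, 9 Rbpj-deleted tumours) while the protocol speaks of cells of each mouse in a well of their own, so what a replicate is remains unclear and p-values measure the spread between libraries, which may be technical.

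Type I interferons are secreted proteins that bind the receptor pair IFNAR1 and IFNAR2. The kinases JAK1 and TYK2 then phosphorylate transcription factors, STAT2 among them, that join IRF9 in the complex ISGF3, and this complex binds interferon-stimulated response elements in the promoters of target genes. The products detect foreign RNA and DNA, stop translation, degrade RNA, modify proteins or hold virus particles at the cell surface. Microglia, the resident macrophages of the brain, keep these genes low in health and can raise them in infection, ageing, degeneration and tumours. Many of the same genes also respond to interferon gamma, the type II interferon made by T and NK cells.

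The promoters show what the set shares at the level of DNA. RefSeq promoters (GRCm38.p6, 250 bases before to 50 bases after the start site) were held for 29 of the 38 members. The core of the response element was searched as GAAANNGAAA on both strands; tandem copies of this motif can overlap each other. It occurred in 14 of the 29 members (48.3%), against 1079 of all 27025 genes in the same table (3.99%). A window could be shown only for a promoter whose matches all end before the start site. The windows below were chosen among those because they belong to members that carry results that follow. Each is 80 bases long, runs 5′ to 3′ on the strand of the gene and ends before the start site. Motif matches are in capitals (a match on the opposite strand reads TTTCNNTTTC).
Isg15, chr4:156200846-156200925, minus strand: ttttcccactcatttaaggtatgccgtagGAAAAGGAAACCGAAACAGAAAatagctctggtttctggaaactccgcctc
Ifit1, chr19:34640759-34640838, plus strand: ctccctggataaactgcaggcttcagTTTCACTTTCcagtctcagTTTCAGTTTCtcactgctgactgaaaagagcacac
Ifit3, chr19:34583355-34583434, plus strand: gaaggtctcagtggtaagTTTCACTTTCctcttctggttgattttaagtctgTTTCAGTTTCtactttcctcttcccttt
Oas1a, chr5:120907526-120907605, minus strand: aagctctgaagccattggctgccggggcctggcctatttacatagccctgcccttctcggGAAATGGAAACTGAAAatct
Oas1g, chr5:120887614-120887693, minus strand: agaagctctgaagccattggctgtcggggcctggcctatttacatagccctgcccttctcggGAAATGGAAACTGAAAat
Bst2, chr8:71537555-71537634, minus strand: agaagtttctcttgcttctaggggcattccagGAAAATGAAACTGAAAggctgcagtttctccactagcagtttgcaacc
Ddx60, chr8:61928007-61928086, plus strand: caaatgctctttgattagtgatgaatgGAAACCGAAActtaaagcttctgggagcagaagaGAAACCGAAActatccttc

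Isg15 has 3 overlapping matches that begin -78, -72 and -66 bases from its start site. Ifit1 has 2 separate ones, at -104 and -85, and Ddx60 has 2, at -53 and -19. The Ifit3b window (chr19:34607751-34607830) is identical to that of Ifit3. Irf7, Irf9, Ifit2, Oasl1, Oasl2, Ifi44, Znfx1 and Samd9l had no match in their promoters, which says only that these letters are not there. Several members also lie side by side: Ifit2, Ifit3, Ifit3b and Ifit1 between positions 34550694 and 34650009 of chromosome 19, Oas2, Oas3, Oas1g and Oas1a between 120730333 and 120907521 of chromosome 5, and Rsad2 and Cmpk2 between 26442746 and 26479837 of chromosome 12 (mm10). Neighbours of like sequence share reads. Ifit3 and Ifit3b share 61.8% and 55.3% of their 31-base words with other genes, chiefly with each other, and Oas1a and Oas1g share 68.8% and 55.1%, so the values of these 4 members are uncertain one by one; no other member exceeded 13.8%.

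The table held 17362 barcodes, of which 14545 were kept as cells (6466 and 2444 from healthy brain, 971 and 508 from control tumours, 2348 and 1808 from Rbpj-deleted tumours). Total counts were 17430763 to 55229031 per library. Of the kept cells, 50 carried a barcode sequence also found on a kept cell of another library. Cells fell into 22 clusters, built without the 38 members among the variable genes, and clusters were named "-like" from marker RNA. Microglia-like cells numbered 4604, 1682, 225, 208, 1092 and 511 in the order healthy, control and Rbpj-deleted, replicates 1 and 2 of each, and monocyte/macrophage-like cells 1024, 317, 213, 83, 722 and 766. Ptprc, which encodes CD45, was present at 243 to 585 CPM (counts scaled to a total of 1000000 per library and class) over the kept cells of each library. Rbpj RNA over all kept cells was 32.9 and 59.0 CPM in healthy brain, 81.3 and 90.4 in the control tumours and 59.8 and 43.9 in the Rbpj-deleted ones, below both control libraries but not absent. In microglia-like cells it was 22.3 and 40.2, then 44.4 and 33.7, then 36.4 and 33.3 CPM, with Rbpj-deleted replicate 1 between the 2 control libraries. The makeup of the kept cells differed between libraries, and its part in the Rbpj level was not tested. Trp53 RNA was 78.6 to 95.1 CPM in the tumour libraries against 81.1 and 86.7 in healthy brain, so these cells do not check the genotype labels.

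The first comparison asks whether the set is raised in the microglia of tumours. Microglia-like cells of both tumour groups held more RNA of nearly every member than those of healthy brain. The score, the mean of log2(CPM + 1) over the 38 members, was 3.32 and 3.33 in the healthy libraries, 4.67 and 5.07 in the control tumours and 5.22 and 5.19 in the Rbpj-deleted tumours. The groups did not overlap; the means were 3.33 ± 0.01, 4.87 ± 0.29 and 5.20 ± 0.02 (SD, n = 2). By edgeR's quasi-likelihood test on counts summed per library, with p-values adjusted over all 11135 genes tested and calls made below 0.05, 27 of 38 members rose in control tumours, where 2.97% of all tested genes did, and 35 of 38 rose in Rbpj-deleted tumours, where 8.27% did. No member fell in either. The median log2 change over the members was 1.80 and 2.09, against -0.02 and -0.03 over all tested genes. In 37 of 38 members both control tumour libraries lay above both healthy ones (18.7% of genes), and in 38 of 38 both Rbpj-deleted libraries did (18.5%). The 2 contrasts share the same healthy libraries and are given side by side.

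**Figure D1:**
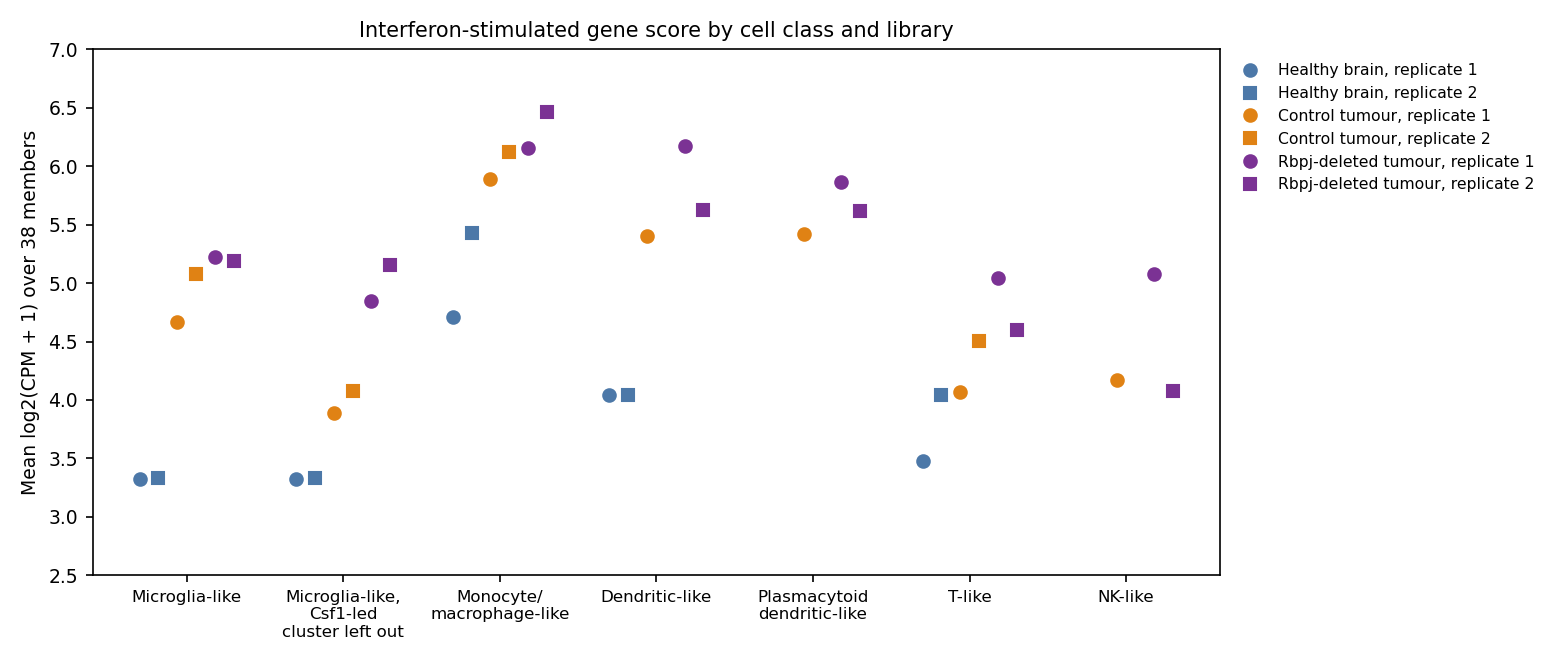
Interferon-stimulated gene score (mean log2(CPM + 1) over 38 members, vertical axis) in each cell class (horizontal axis), 1 point per library with at least 20 cells of the class; colours are groups and shapes replicates. In microglia-like cells the healthy libraries sit at 3.32 and 3.33 and the tumour libraries between 4.67 and 5.22; monocyte/macrophage-like cells start higher, at 4.71 and 5.42.

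Of the transcription factors that carry the signal, Irf7, the factor that amplifies interferon production, rose most. Irf7 was 13.5 and 10.9 CPM in healthy microglia-like cells, 46.8 and 76.8 in the control tumours and 100 and 113.6 in the Rbpj-deleted ones. Its log2 change was 2.43 ± 0.26 (SE; edgeR, adjusted p = 0.000127) in control and 3.31 ± 0.26 (6.89e-06) in Rbpj-deleted tumours. Stat2, a subunit of ISGF3, stood at 23.0 and 25.7, then 75.9 and 87.2, then 59.5 and 72.3 CPM, rising by 1.85 ± 0.20 (0.000138) and 1.63 ± 0.20 (0.000203). Irf9, the DNA-contacting subunit of the same complex, was 55.5 and 59.1 CPM in healthy brain, 55.7 and 69.4 in the control tumours and 69.2 and 66.7 in the Rbpj-deleted ones. Irf9 had the smallest change of all members, 0.23 ± 0.20 (edgeR, adjusted p = 0.648) and 0.45 ± 0.19 (0.151), and was not called in either contrast.

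All 4 members of the ISG15 system rose in both tumour groups. Isg15, a ubiquitin-like protein that is attached to other proteins and also secreted, was 18.9 and 18.7 CPM in healthy libraries, 171 and 179.9 in the control tumours and 213 and 159.9 in the Rbpj-deleted ones. Every tumour library lay far above the healthy pair, and the log2 change was 3.33 ± 0.22 (edgeR, adjusted p = 3.3e-06) and 3.51 ± 0.22 (1.51e-06). Usp18, the protease that removes ISG15 and restrains the receptor, was scarce, at 1.42 and 1.28 CPM, then 5.25 and 5.45, then 4.86 and 3.67. Herc6, a ligase that attaches ISG15 in mice, went from 17.8 and 16.4 to 33.9 and 48.6 and to 44.8 and 30.2 CPM. Trim25, a ubiquitin ligase that activates RIG-I, went from 24.6 and 18.9 to 41.2 and 35.2 and to 41.8 and 44.4 CPM. The 3 rose by 0.91 to 2.07 in control tumours and by 1.17 to 1.86 in Rbpj-deleted tumours.

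The 4 genes of the IFIT family of antiviral proteins also rose in both groups. Ifit3 was 18.1 and 18.0 CPM in healthy brain, 55.3 and 69.4 in the control tumours and 88.9 and 100.9 in the Rbpj-deleted ones, a log2 change of 1.89 ± 0.21 (edgeR, adjusted p = 0.000136) and 2.59 ± 0.20 (6.38e-06). Ifit2 went from 6.93 and 10.5 CPM to 46.0 and 58.5 and to 71.5 and 52.3, by 2.71 ± 0.27 (7.74e-05) and 3.06 ± 0.27 (1.57e-05). Ifit1 was 3.96 and 5.95 CPM, then 13.7 and 17.8, then 23.2 and 26.8. Ifit3b, which shares sequence with Ifit3, stood at 3.79 and 3.66, then 9.28 and 8.92, then 18.1 and 20.6 CPM.

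Among the oligoadenylate synthetases, which sense double-stranded RNA and make the messenger that activates RNase L, 6 of 6 rose in both groups. Their median log2 change, 3.16 and 3.85, was the highest of the 8 roles. Oas1a was 12.4 and 7.97 CPM in healthy libraries, 37.5 and 49.6 in the control tumours and 46.2 and 69.5 in the Rbpj-deleted ones. Oasl1, an OAS-like protein that represses translation of Irf7, was nearly absent from healthy microglia-like cells at 1.35 and 1.10 CPM and reached 20.6 and 38.2, then 25.8 and 28.3 CPM. Its log2 change was 4.62 ± 0.35 (edgeR, adjusted p = 6.95e-06) and 4.60 ± 0.34 (4.03e-06). Oasl2 went from 3.62 and 3.12 CPM to 17.8 and 35.2 and to 37.6 and 30.2. Oas1g, Oas2 and Oas3 stayed below 20 CPM in every library.

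The Mx proteins, dynamin-like GTPases that trap viral ribonucleoproteins, moved less. Mx1 was 4.23 and 6.32 CPM, then 10.5 and 23.3, then 18.9 and 23.5, and rose in both groups (1.79 ± 0.38, edgeR adjusted p = 0.0241, and 2.22 ± 0.36, 0.0024). Mx2 was 7.98 and 8.43 CPM, then 9.69 and 13.9, then 14.2 and 14.1; it passed the test in Rbpj-deleted tumours (0.99 ± 0.28, edgeR adjusted p = 0.0404) and not in control tumours (0.62 ± 0.31, 0.371).

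Sensors of foreign nucleic acid were uneven: 3 of 7 members of this role rose in control tumours and 5 of 7 in Rbpj-deleted tumours. Zbp1, a sensor of Z-form nucleic acid that can trigger necroptosis, was 2.91 and 3.94 CPM in healthy brain, 74.7 and 66.9 in the control tumours and 68.7 and 119 in the Rbpj-deleted ones. Its log2 change was 4.51 ± 0.30 (edgeR, adjusted p = 5.58e-06) and 4.99 ± 0.30 (2.13e-06), and the healthy and tumour libraries lay far apart. Ifih1, which encodes MDA5, went from 22.6 and 20.4 CPM to 66.2 and 54.5 and to 64.8 and 46.1, by 1.59 ± 0.23 (0.00145) and 1.57 ± 0.22 (0.000688). Eif2ak2, the kinase PKR that halts translation, was 52.3 and 56.3, then 90.4 and 122.9, then 124.5 and 101 CPM (1.08 ± 0.21 and 1.26 ± 0.21). Ddx58, which encodes RIG-I, and Znfx1, an RNA helicase, were not called in either contrast (0.59 ± 0.26 and 0.71 ± 0.24 for Ddx58). Znfx1 was the most abundant member of this role in healthy brain, with 67.9 and 58.5 CPM there, 88.0 and 85.7 in the control tumours and 93.5 and 68.1 in the Rbpj-deleted ones. Dhx58 and Ddx60 passed the test in Rbpj-deleted tumours alone.

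Of the 9 other antiviral effectors, 5 rose in the control group and 9 in the Rbpj-deleted group. Bst2, tetherin, which holds budding virus at the membrane, was the most abundant member of the set in this class: 81.0 and 76.9 CPM in healthy brain, 359 and 361 in the control tumours, 342 and 401 in the Rbpj-deleted ones (2.29 ± 0.20, edgeR adjusted p = 2.19e-05, and 2.43 ± 0.20, 8.77e-06). Rsad2, viperin, which makes a chain-terminating nucleotide, was 0.676 and 2.11 CPM in healthy brain, 12.9 and 30.2 in the control tumours and 26.7 and 29.7 in the Rbpj-deleted ones (4.23 ± 0.61, edgeR adjusted p = 0.0123, and 4.71 ± 0.59, 0.00312). Xaf1, a promoter of cell death, rose from 27.9 and 21.3 CPM to 58.9 and 60.9 and to 74.5 and 70.1. Rtp4 was uneven within the control tumours, with 36.8 and 22.7 CPM in healthy libraries, 39.95 and 87.2 in the control tumours and 102.5 and 102.8 in the Rbpj-deleted ones; it was called in the latter (1.97 ± 0.39, edgeR adjusted p = 0.0219) and not in the former (1.18 ± 0.40, 0.223). Isg20, an RNA exonuclease, followed the same order at lower levels, with 5.21 and 4.95 CPM, then 11.3 and 9.41, then 18.0 and 15.3. Ifi35 was 56.6 and 43.3, then 82.7 and 71.8, then 77.3 and 88.4 CPM, and Cmpk2, the nucleotide kinase beside Rsad2, stayed below 7 CPM. Ifi44 had the highest log2 change of all members (4.72 ± 0.78 and 5.71 ± 0.70) from 0.304 and 0 CPM, at levels of 4.04 to 13.03 CPM in the tumour libraries.

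The ADP-ribosylation group, Parp9 with its partner ligase Dtx3l and Parp14, had small changes. Parp14 was 56.2 and 62.4 CPM in healthy brain, 87.2 and 148 in the control tumours and 138 and 119.5 in the Rbpj-deleted ones (1.10 ± 0.25, edgeR adjusted p = 0.0306, and 1.32 ± 0.24, 0.00444). Dtx3l was 35.5 and 39.9, then 49.6 and 58.0, then 59.2 and 46.9 CPM, called in Rbpj-deleted tumours alone. Across the set, the members called in Rbpj-deleted and not in control tumours were Cmpk2, Ddx60, Dhx58, Dtx3l, Ifi35, Isg20, Mx2 and Rtp4, and a call in 1 contrast and not in the other does not show a difference between the tumour groups, which is tested below.

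**Figure D2:**
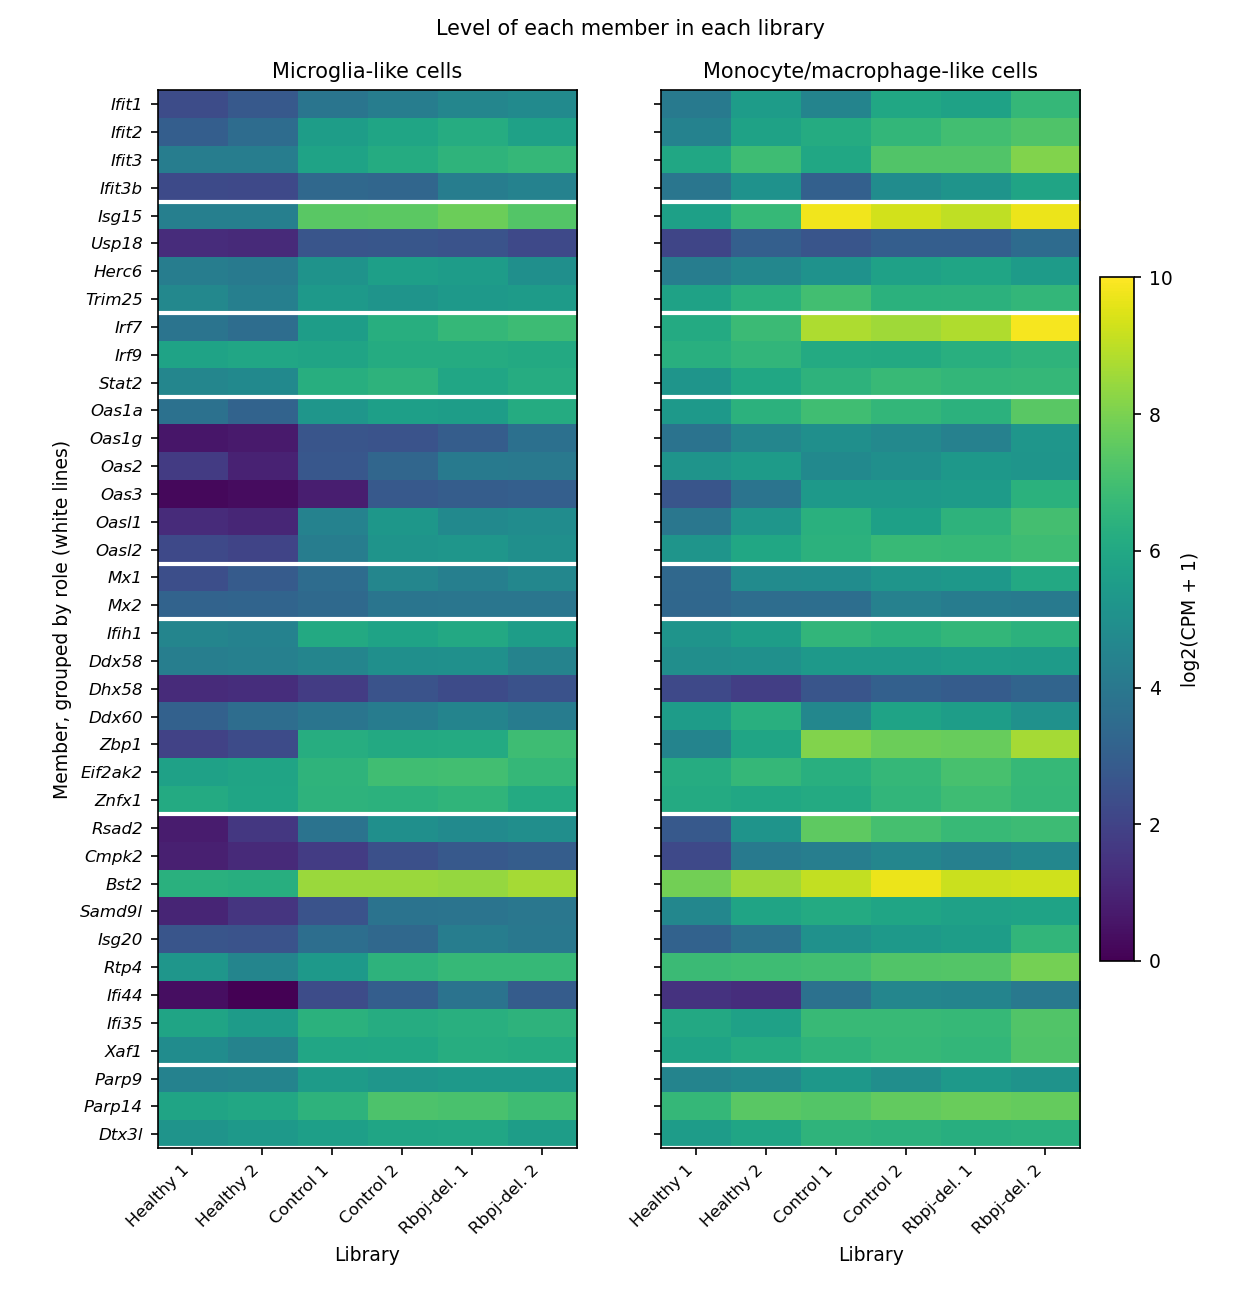
Level of each of the 38 members (rows, grouped by role) in each library (columns) as log2(CPM + 1), colour scale from 0 to 10, in microglia-like and in monocyte/macrophage-like cells. The 2 healthy columns are darker than the 4 tumour columns for most members of the left panel, Irf9 and Znfx1 change least, and Isg15, Irf7, Zbp1 and Bst2 are brightest in tumour macrophages.

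Microglia-like cells fell into several clusters that carried the set at different levels, and without 1 of these clusters nearly all calls in control tumours were lost. A cluster led by Il1a, Csf1, Egr3 and Tnf held 0.0652% and 0.297% of healthy microglia-like cells, 45.3% and 49.5% of those in the control tumours, and 67.5% and 10.6% in the Rbpj-deleted ones. A cluster led by Spp1 and Apoc1 held 29.8% and 29.3% in the control tumours and 27.7% and 81.6% in the Rbpj-deleted ones. Healthy cells lay mostly in other clusters: replicate 1 in the pair with Slc2a5 among its leading genes (50.7% and 43.5%) and replicate 2 in a cluster led by the heat-shock genes Hspb1 and Hspa1a (87.8%). The member score of the Csf1-led cluster was 5.15 and 5.60 in the control and 5.32 and 5.36 in the Rbpj-deleted tumours. In the Spp1-led cluster it was 3.68 and 4.34 in healthy brain, 4.18 and 4.27 in the control tumours, and 4.92 and 5.19 in the Rbpj-deleted ones. The heat-shock cluster scored 3.0 and 3.03 in healthy brain and 3.16 to 3.23 in the 3 tumour libraries with at least 20 such cells. The Slc2a5 cluster with 43.5% of healthy replicate 1 scored 3.41 there and lower, 2.77, in control replicate 1 (37 cells). No other library held 20 cells of it. By the score, control tumours and healthy brain overlapped within the Spp1-led cluster, while both Rbpj-deleted libraries lay above both. The CPM summed over the members did not overlap between the groups there. It was 866.9 and 1178 in healthy brain, 1381 and 1425 in the control and 1823 and 2221 in the Rbpj-deleted tumours.

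With the Csf1-led cluster left out, the control libraries held 123 and 105 microglia-like cells. The median log2 change was 0.73 in control and 1.91 in Rbpj-deleted tumours. In control tumours 34 of 36 tested members had a log2 change above 0. There 17 had an unadjusted p under 0.05 (edgeR), against 8.02% of all genes. At the adjusted threshold 28 of 36 rose in Rbpj-deleted tumours (5.08% of all genes did) and 1 of 36 rose in control tumours (0.123%). The 1 member was Bst2, at 81.0 and 76.9 CPM in healthy brain, 221 and 241 in the control tumours and 268 and 406 in the Rbpj-deleted ones (1.62, edgeR adjusted p = 0.0232, and 2.26, 0.000618). Zbp1 outside the cluster was 2.91 and 3.95, then 21.2 and 25.4, then 55.1 and 117 CPM, with an adjusted p of 0.0616 (edgeR) in control tumours. Isg15 was 19.0 and 18.7, then 113 and 38.5, then 129.7 and 144 CPM. Ifit1 outside the cluster was 3.96 and 5.96 CPM in healthy brain, 4.53 and 4.70 in the control tumours and 19.9 and 22.5 in the Rbpj-deleted ones, so that its log2 change in control tumours turned to -0.02. Leaving out control tumour replicate 2 also lowered the count in control tumours, to 13 of 38 called members.

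RNA of other cell types moved with the tumour groups in this class. Summed over 9 T-cell markers, all of them above 0 in every library, it was 8.12 and 5.31 CPM in healthy microglia-like cells, 20.2 and 41.6 in the control tumours and 30.3 and 38.1 in the Rbpj-deleted ones, against 2601 to 11041 CPM in T-like cells. The 8 monocyte markers summed to 320 and 266, then 762 and 688, then 1276 and 3279 CPM, with Chil3 at 0 in both control libraries and in Rbpj-deleted replicate 2, against 6539 to 25622 in monocyte/macrophage-like cells. The 8 border macrophage markers summed to 180.6 and 148 CPM in healthy brain, 132 and 103 in the control tumours, and 117 and 764 in the Rbpj-deleted ones, where replicate 2 stands apart. The 10 microglial markers summed to 27762 and 29015 CPM in healthy brain and 16428 to 19740 in tumours. The part of these in the member levels was not tested.

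Single cells show how the levels are spread. Each cell was thinned to 2000 counts, and 4.09% and 3.35% of healthy microglia-like cells held at least 5 member counts, against 23.7% and 32.1% in the control tumours and 31.5% and 33.3% in the Rbpj-deleted ones. Without thinning these shares were 32.4% and 30.8%, 75.6% and 68.3%, and 73.9% and 68.9%, at median depths of 5256.5 and 6272, 9438 and 8058, and 7004 and 5355 counts per cell. Within the Csf1-led cluster the thinned share was 44.8% and 48.1% in the control and 38.8% and 34.7% in the Rbpj-deleted tumours. In the Spp1-led cluster it was 5.53% and 8.11% in healthy brain, 12.1% and 25.9% in the control and 19.5% and 35.9% in the Rbpj-deleted tumours, where control replicate 2 lay above Rbpj-deleted replicate 1. Most tumour microglia-like cells thus stayed below 5 member counts at this depth.

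**Figure D3:**
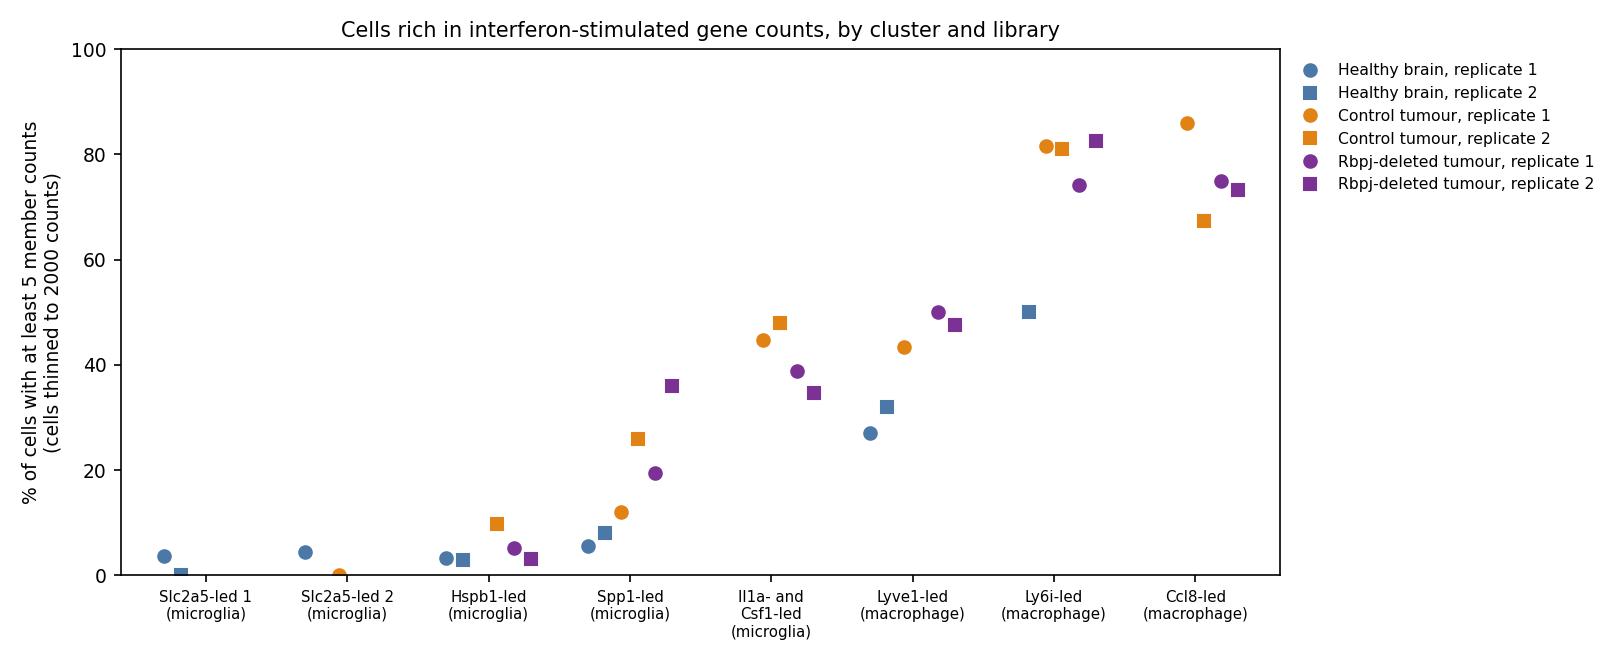
Share of cells with at least 5 member counts after each cell was thinned to 2000 counts (vertical axis, %), in 5 microglia-like and 3 monocyte/macrophage-like clusters named by leading genes, 1 point per library with at least 20 such cells. Shares rise from at most 9.68% in the heat-shock (Hspb1-led) cluster to 34.7% to 48.1% in the Csf1-led cluster, and tumour libraries reach 67.4% to 86.1% in the Ly6i-led and Ccl8-led macrophage clusters.

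Monocyte/macrophage-like cells carried the set at higher levels than microglia-like cells in all 6 libraries, and fewer of its changes passed the test. The score was 4.71 and 5.42 in healthy brain, 5.89 and 6.12 in the control tumours and 6.16 and 6.46 in the Rbpj-deleted ones (means 5.07 ± 0.51, 6.01 ± 0.16 and 6.31 ± 0.21, SD, n = 2). In control tumours 5 of 38 members rose, where 2.27% of 11045 tested genes did, and in Rbpj-deleted tumours 12 of 38 rose, where 2.62% did; none fell. Both tumour libraries lay above both healthy libraries for 28 members in control tumours (15.2% of genes) and for 31 in Rbpj-deleted tumours (14.9%). The median log2 change was 1.09 and 1.35. Different clusters held most of the class: the Lyve1-led cluster of border macrophages held 79.6% and 66.9% of it in healthy brain and 2.87% to 11.7% in tumours, while the Ly6i-led and Ccl8-led clusters held most tumour cells. Within the Lyve1-led cluster the score was 4.72 and 5.32 in healthy brain (815 and 212 cells), and by it the groups overlapped. It was 4.85 in control replicate 1 (25 cells) and 5.32 and 5.07 in the Rbpj-deleted tumours (30 and 22 cells). The CPM summed over the members there was 1580 and 2376, then 2087, then 2513 and 2697. By that sum both Rbpj-deleted libraries lay above both healthy ones. In the Ly6i-led cluster the score was 5.56 in healthy replicate 2 (23 cells). The tumour libraries there scored 5.94 and 6.67 in the control and 6.36 and 6.53 in the Rbpj-deleted group. The 8 border macrophage markers summed to 8519 and 12796 CPM in healthy brain and 1930 to 2476 in tumours. The part of this change of cells in the member levels was not tested.

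Isg15 was 50.4 and 103 CPM in healthy macrophages, 880.3 and 628 in the control tumours and 528 and 836 in the Rbpj-deleted ones, the highest levels of Isg15 in any fitted class. All 4 tumour libraries lay far above both healthy ones, and the log2 change was 3.60 ± 0.50 (edgeR, adjusted p = 0.0127) and 3.46 ± 0.50 (0.0128). Irf7 was 68.7 and 111, then 431 and 377, then 442 and 918 CPM (2.47 ± 0.47, edgeR adjusted p = 0.0346, and 3.24 ± 0.48, 0.0134). Zbp1 was 21.9 and 57.5, then 275 and 217, then 203 and 404 CPM (2.95 ± 0.58, edgeR adjusted p = 0.0489, and 3.27 ± 0.59, 0.0313). Ifih1 and Ifi44 were the other members called in both: Ifih1 went from 35.6 and 45.8 CPM to 94.8 and 82.1 and to 96.8 and 84.0, and Ifi44 from 1.74 and 1.503 to 12.2 and 23.0 and to 22.1 and 15.3.

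Rbpj-deleted tumours added Ifit2, Herc6, Stat2, Oas3, Oasl2, Isg20 and Ifi35 to the members called in macrophages. Isg20 was 7.77 and 12.8 CPM in healthy brain, 32.1 and 41.1 in the control tumours and 46.4 and 95.3 in the Rbpj-deleted ones (2.16 ± 0.46, edgeR adjusted p = 0.055, and 3.15 ± 0.45, 0.0143). Ifit2 was 20.8 and 52.6, then 70.5 and 97.1, then 124 and 153 CPM, and was called in Rbpj-deleted tumours (2.25 ± 0.44, edgeR adjusted p = 0.0408). Oas3 stood at 5.21 and 13.5, then 41.5 and 41.1, then 43.9 and 83.0 CPM. Bst2 was 236 and 381, then 537 and 824, then 587 and 616 CPM, and did not pass (edgeR, adjusted p = 0.0884 and 0.115) although its libraries did not overlap. Ifit3, at 61.6 and 118 CPM in healthy brain, 60.8 and 155 in the control tumours and 156 and 274 in the Rbpj-deleted ones, overlapped between healthy brain and control tumours. Oas2 and Irf9 lay lower in both control tumour libraries than in healthy brain: Oas2 was 35.5 and 43.6 CPM there and 25.9 and 30.5 in control tumours, with 39.2 and 36.0 in Rbpj-deleted tumours, and neither gene passed the test.

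Healthy replicate 2 exceeded replicate 1 in this class for 34 of 38 members, by a median of 0.70 on the log2 scale. Without healthy replicate 1 none of the members was called in either contrast, without control tumour replicate 1 the control count was 2, without Rbpj-deleted replicate 2 the Rbpj-deleted count was 4, and with a term for a library split seen in the data (healthy replicate 1 with the control libraries, healthy replicate 2 with the Rbpj-deleted ones) it was 1. Scaling by library size alone shifted the median of all genes by -0.29 in both macrophage contrasts and by -0.10 and -0.20 in the microglia-like ones. The calls over all genes then split into 175 higher and 129 lower in control and 193 and 220 in Rbpj-deleted macrophages (251 and 69, and 289 and 146, with TMM scaling), and into 278 and 84, and 694 and 902, in microglia-like cells (331 and 46, and 921 and 381).

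**Figure D4:**
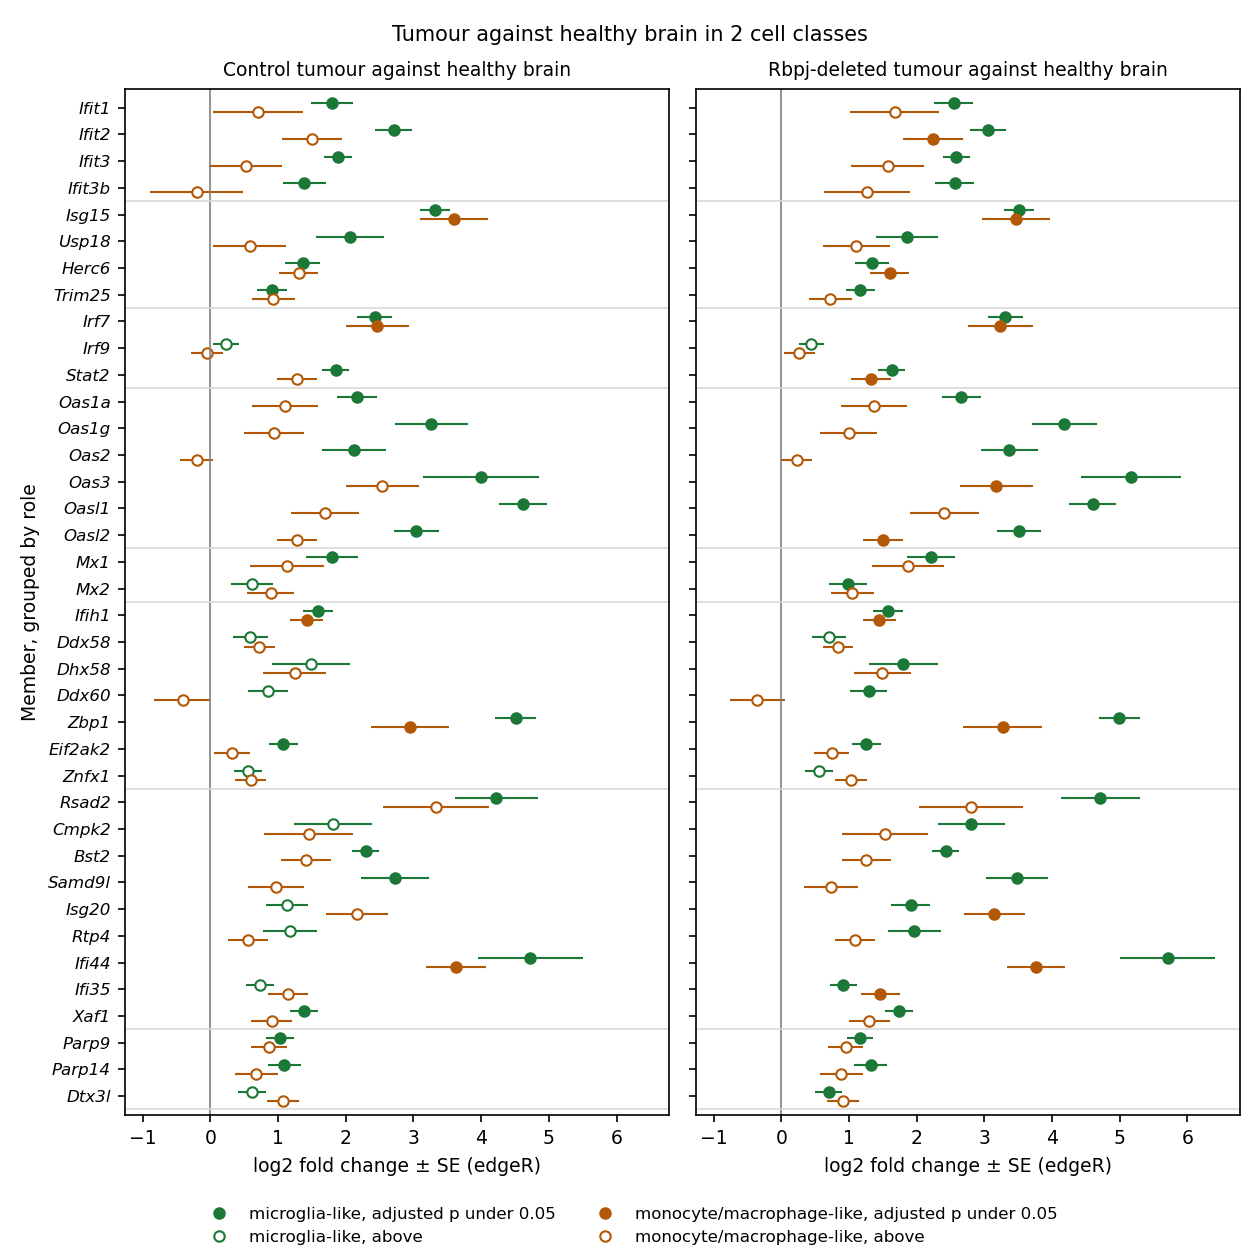
Log2 fold change ± SE (edgeR, horizontal axis) of each member (vertical axis, grouped by role) for control tumour and for Rbpj-deleted tumour against healthy brain, in microglia-like (green) and monocyte/macrophage-like cells (orange); filled points have an adjusted p under 0.05. Microglia-like points lie to the right of 0 for 38 of 38 members in both panels, and Oas1g, Oas2, Samd9l and Ddx60 show the widest separation of the classes that passed a test in the right panel.

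The difference between the classes was tested itself, with each library as a block. In Rbpj-deleted tumours 4 members rose more in microglia-like than in monocyte/macrophage-like cells, where 0.669% of 11817 genes did. Oas1g was 0.507 and 0.641 CPM in healthy microglia-like cells, 5.25 and 4.96 in the control tumours and 6.72 and 11.9 in the Rbpj-deleted ones. In macrophages Oas1g was already at 13.1 and 23.3 CPM in healthy brain and stood at 30.3 and 24.9, then 19.9 and 37.3 CPM. The difference of its log2 changes was 3.10 ± 0.34 (edgeR, adjusted p = 0.00545). Oas2 went from 2.37 and 0.916 to 16.5 and 15.5 CPM in microglia-like cells of Rbpj-deleted tumours, with the flat macrophage values given above, a difference of 3.04 ± 0.42 (0.0173). Samd9l, an antiviral restriction factor that inhibits translation, went from 1.05 and 1.92 to 13.3 and 14.4 CPM in microglia-like cells, against 23.5 and 56.7 and then 51.9 and 54.8 in macrophages (2.59 ± 0.43, 0.0392). Ddx60, a helicase that assists RIG-I, went from 7.64 and 11.0 to 21.5 and 17.5 CPM, against 45.2 and 78.5 and then 46.8 and 32.2 in macrophages (1.56 ± 0.25, 0.0261). Healthy macrophages held all 4 genes at or above the level that tumour microglia-like cells reached. In control tumours the same differences were 2.20, 2.23, 1.57 and 1.28 (edgeR, adjusted p = 0.173, 0.287, 0.372 and 0.262). There 0 of 38 members passed by edgeR, against 0.0423% of all genes. DESeq2 called 1 member, with its share of all genes not given. By edgeR 11 members had an unadjusted p under 0.05, against 9.97% of all tested genes. Without either Rbpj-deleted library Oas1g alone among the 4 kept its call.

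The comparison of Rbpj-deleted with control tumours asks whether loss of Rbpj in the tumour goes with another level of the set. The library split named above parts the control libraries from the Rbpj-deleted ones just as the genotype does. A term for that split could not be fitted here, so its part and that of Rbpj cannot be told apart in this comparison. None of the 38 members passed the test in microglia-like cells, with edgeR or DESeq2, where 0.0718% of all genes did; 6 members had an unadjusted p under 0.05, against 12.9% of all tested genes. The score difference was 0.33; it was 0.13 without control replicate 1 and 0.54 without control replicate 2, and 0.32 and 0.35 without Rbpj-deleted replicate 1 and 2. Of the members, 32 of 38 had a log2 change above 0, with a median of 0.37. Both Rbpj-deleted libraries lay above both control libraries for 15 of 38 members (17.8% of all genes), and below them for 2. The largest changes included Oas2 (1.24 ± 0.44, edgeR adjusted p = 0.291), Ifit3b (1.17 ± 0.31, 0.176) and Irf7 (0.88 ± 0.25, 0.197). Isg15, Stat2, Ifih1, Oasl1 and Znfx1 had changes between -0.22 and 0.18. With the Csf1-led cluster left out, the score was 3.89 and 4.08 in the control and 4.84 and 5.15 in the Rbpj-deleted tumours, a difference of 1.01. There 35 of 36 tested members had a log2 change above 0 (median 0.88) and 20 had an unadjusted p under 0.05, against 15.7% of all genes, yet edgeR called none at the adjusted threshold (0.0411% of all genes). Ifit3 came nearest, with 32.5 and 39.5 CPM in the control and 78.3 and 96.8 in the Rbpj-deleted tumours (1.38, edgeR adjusted p = 0.0589), and Rsad2, with 3.78 and 0.940 against 30.8 and 28.3 CPM, had the largest change (3.65, 0.0994). The cells outside that cluster differed in makeup between the tumour groups: the Spp1-led cluster held 54.5% and 58.1% of them in the control tumours (67 of 123 and 61 of 105 cells) and 85.4% and 91.2% in the Rbpj-deleted ones (303 of 355 and 417 of 457). Both Rbpj-deleted libraries lay above both control libraries in this share, and its part in the difference was not tested.

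In monocyte/macrophage-like cells 0 of 38 members, and 0% of the 11045 genes, differed between the tumour groups by edgeR. DESeq2 also called 0 members. By edgeR 1 member had an unadjusted p under 0.05, against 3.95% of all tested genes. Both Rbpj-deleted libraries were above both control libraries for 16 members (16.6% of genes) and below for 3. The score difference was 0.30; it was 0.19 and 0.42 without control replicate 1 and 2, and 0.45 and 0.15 without Rbpj-deleted replicate 1 and 2. Ifit3b (1.47 ± 0.67), Ifit3 (1.05 ± 0.54) and Isg20 (0.99 ± 0.42) had the largest changes, each with an adjusted p of 0.999 by edgeR. Such a miss does not show equal levels. In counts simulated for Rbpj-deleted tumours against healthy brain, 5 of 100 genes changed 2-fold were called in this class, and 46 of 100 in microglia-like cells. The contrast between the tumour groups was not simulated.

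Lymphoid and dendritic cells also carried the set. T-like cells scored 3.48 and 4.04 in healthy brain (28 and 22 cells), 4.07 and 4.50 in the control tumours and 5.05 and 4.60 in the Rbpj-deleted ones. Between the tumour groups edgeR called 0 of 29 tested members, where 0.483% of 7245 genes were called. By edgeR 6 had an unadjusted p under 0.05, against 8.47% of all tested genes. DESeq2 called 1 member, with its share of all genes not given. That gene was Isg15, at 21.8 and 23.8 CPM in healthy brain, 102 and 134.5 in the control tumours and 422 and 253 in the Rbpj-deleted ones (1.38 ± 0.31; adjusted p = 0.157 by edgeR and 0.0335 by DESeq2). Ifit3 in T-like cells was 37.8 and 25.1 CPM in the control and 80.5 and 77.6 in the Rbpj-deleted tumours (1.19 ± 0.30, edgeR adjusted p = 0.2). Zbp1 was 88.0 and 174 against 166 and 210 CPM, and overlapped between the groups. RNA of other cell types in the T-like class differed between the groups too. The 4 mast cell and basophil markers summed to 502 and 637 CPM in healthy brain, 0.398 and 0.739 in the control tumours, with Mcpt8, Cpa3 and Fcer1a at 0, and 362 and 246 in the Rbpj-deleted ones, with Fcer1a at 0. The 8 NK markers summed to 13.1 and 190.2, then 129 and 301.5, then 689.9 and 1218 CPM, with Klra4 and Klra8 at 0 in all 6 libraries. The 8 border macrophage markers summed to 2389 and 2387 CPM in healthy brain and 2.69 to 25.9 in tumours, and the 10 microglial markers to 7888 and 637, then 104 and 158, then 255 and 622 CPM. The 9 T-cell markers, all above 0 in every library, summed to 2817 and 2601 CPM in healthy brain and 8618 to 11041 in tumours. The part of these in the member levels of T-like cells was not tested.

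Dendritic-like cells scored 4.04 and 4.04 in healthy brain, 5.40 in control tumour replicate 1, and 6.18 and 5.63 in Rbpj-deleted tumours; control replicate 2 held 17 of these cells, under the minimum of 20, so this class was not fitted. Isg15 in them was 35.5 and 49.5 CPM in healthy brain, 411 in control replicate 1, and 621 and 813 in Rbpj-deleted tumours, and Irf7 was 34.5 and 22.7, then 247, then 354 and 449.5 CPM. Plasmacytoid dendritic-like cells, the cell type known for making interferon alpha, scored 5.42 in control tumour replicate 1 and 5.87 and 5.61 in Rbpj-deleted tumours. Bst2, a surface marker of these cells in mice, was 4041 CPM in the control library and 1499 and 1898 in the Rbpj-deleted ones. NK-like cells scored 4.17 in control replicate 1 and 5.08 and 4.07 in Rbpj-deleted tumours, where the 2 replicates lay on both sides of the control value. Neutrophil-like cells scored 4.66 ± 0.13 (SD, n = 2) in healthy brain and 5.66 in Rbpj-deleted replicate 1. B-like cells scored 3.78 and 3.09 in healthy brain (45 and 57 cells) and 4.04 in control replicate 1 (36 cells). In Rbpj-deleted replicate 2 (21 cells) they scored 2.17, below both healthy libraries. In healthy brain the order of the means ran from macrophage-like (5.07) through endothelial-like (4.99, 1 library), neutrophil-like, dendritic-like, T-like and B-like (3.44 ± 0.49, SD, n = 2) to microglia-like cells (3.33). The endothelial-like value lay within the range of the macrophage-like replicates. By this score B-like cells did not differ from T-like or microglia-like cells beyond their spread. Summed over the members, healthy B-like cells held 1264 and 979.8 CPM and T-like cells 768.7 and 1113. The largest healthy microglial clusters held 661.2 and 743.4 CPM in replicate 1 and 625.8 in replicate 2, and the Spp1-led one 866.9 and 1178.

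Interferon RNA itself was scarce. Of 20 interferon genes listed, 7 were in the table. Ifnb1, interferon beta, gave 48 counts in 16 of the 14545 cells: 0 in both healthy libraries, 1 and 0 in the control tumours and 44 and 3 in the Rbpj-deleted ones. Cells with a count made up 0.361% of Rbpj-deleted cells (95% exact binomial interval 0.202 to 0.595%, counting error only), and 0 of 8910 healthy cells had one, which allows a share of up to 0.0337% by 3 counts of the total and 0.0414% by the same exact interval. Monocyte/macrophage-like cells gave 35 of these counts, from 6 cells, and 1 cell alone gave 23, so the difference between the groups rests on few cells of 1 library; T-like and B-like cells gave 0. Ifna2, Ifna13, Ifna16 and Ifnl3 gave 0 counts, and Ifna7 gave 1, in healthy replicate 1. Ifnz, interferon zeta, gave 11 counts in 11 cells, 7 and 1 in healthy brain, 1 and 0 in the control tumours and 1 and 1 in the Rbpj-deleted ones. Microglia-like cells held 6 of them and monocyte/macrophage-like cells 3.

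The chains of the receptor moved little. Ifnar1 was 30.7 to 39.8 CPM and Ifnar2 70.3 to 134 CPM in microglia-like cells across the 6 libraries, and neither was called. The kinase genes Jak1 and Tyk2 were not called either. Among 12 sensors and adaptors above interferon, Ikbke rose in both tumour groups and Tlr7 fell in Rbpj-deleted tumours (200.6 and 229 CPM in healthy brain, 110.1 and 93.0 there). Tmem173 (STING), Mb21d1 (cGAS), Mavs and Tbk1 were not called. Of 7 tested brakes, Samhd1 and Socs1 rose in both groups, with Rnaseh2b in Rbpj-deleted tumours.

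Genes known mainly for interferon gamma rose beside the set. In microglia-like cells 6 of 9 rose in each tumour group, against 2.97% of all genes in control and 8.27% in Rbpj-deleted tumours. Ciita, Gbp2, Ifng, Iigp1 and Irf1 rose in both, with Irf8 called in control and Cxcl9 in Rbpj-deleted tumours, and Ifngr1 fell in both. Cxcl9 was 1.62 and 0.916, then 111 and 670, then 709 and 575 CPM. Its log2 change was 8.26 ± 1.37 in control tumours (edgeR, adjusted p = 0.106) and 9.06 ± 1.41 in Rbpj-deleted ones (0.0432). Between the tumour groups it was 0.80 ± 0.96 (0.785). Ciita was scarce, at 0 CPM in the healthy libraries and 0.848 to 2.48 in the tumour ones. In macrophages 7 of 9 rose in control and 5 of 9 in Rbpj-deleted tumours (2.27% and 2.62% of all genes). Iigp1, an immunity-related GTPase, was 1.89 and 4.21 CPM in healthy microglia-like cells, 384 and 398 in the control tumours and 101 and 138 in the Rbpj-deleted ones (7.21 ± 0.38, edgeR adjusted p = 3.91e-06, and 5.58 ± 0.36, 7.88e-06). Gbp2, a guanylate-binding protein, was 4.80 and 9.99, then 584 and 395, then 220.4 and 257 CPM. Irf1 was 7.85 and 9.34, then 54.5 and 55.5, then 49.7 and 47.2 CPM. Both Iigp1 and Gbp2 were lower in both Rbpj-deleted libraries than in both control ones, a difference that did not pass the test (edgeR, adjusted p = 0.0845 and 0.288). Ifngr1, a chain of the interferon gamma receptor, fell from 1523 and 1998 CPM to 848 and 902 and to 741 and 621. Ifng RNA in microglia-like cells was 0.237 to 3.96 CPM, against 658 to 1251 CPM in T-like cells of the tumours. Because both interferon types act on many of the 38 members, the shares of type I and type II interferon in their levels cannot be told apart here.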

How the data were processed

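Counts were used as the authors deposited them: whole-number counts per gene and barcode in 1 table, with kallisto 0.46.0, bustools 0.39.3 and mm10 named in the submitters' processing notes without roles. The members and all gene lists were chosen with earlier results of these data known. A barcode needed 500 detected genes and no more than 10% mitochondrial counts; 17 were removed by these limits, 256 as index-hopped copies and 2544 as mixtures of lineages by their marker RNA, the way doublets were treated. Cells were clustered with scanpy 1.11.5 (2000 variable genes, 30 components, Leiden resolution 1), without the members. Counts were summed per library and class (at least 20 cells) and tested over all genes with edgeR 4.0.16 (filterByExpr, TMM, robust quasi-likelihood, Benjamini-Hochberg, threshold 0.05, 3 residual degrees of freedom; 2 for T-like cells). DESeq2 1.42.0 was an alternative. The score is the mean of log2(CPM + 1), with no test. In the interaction fit each library was a block. Symbols and positions come from GENCODE vM21. Values in every library are given, in each role, for the 2 most abundant members in microglia-like cells, for up to 6 called members of largest change per contrast with at least 20 CPM, and for members whose call differed between tumour groups or classes; others were added for completeness. In simulated counts, genes were changed in the Rbpj-deleted libraries and tested against healthy brain. The microglia-like fit called 46 of 100 genes changed 2-fold, 89 of 100 changed 4-fold and 0.174% of 10935 unchanged ones. The macrophage fit called 5, 58 and 0.0461% of 10845. Counting error alone is covered by the intervals given. One gene of the pathway list is not reported here.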

Additional observations from a re-analysis of the deposited data

Results flagged for a closer look

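For 4 members the change in Rbpj-deleted tumours against healthy brain differed between microglia-like and monocyte/macrophage-like cells by a test of the difference itself. The microglia-like log2 change exceeded the macrophage one by 3.10 ± 0.34 (SE; edgeR, adjusted p = 0.00545) for Oas1g, 3.04 ± 0.42 (0.0173) for Oas2, 2.59 ± 0.43 (0.0392) for Samd9l and 1.56 ± 0.25 (0.0261) for Ddx60, from 2 libraries per group. Without Rbpj-deleted replicate 1 or replicate 2, Oas2, Samd9l and Ddx60 no longer passed the test, and Oas1g did; Samd9l and Ddx60 were also lost without either healthy library, and Oas2 without the Csf1-led cluster. Oas1g shares sequence with Oas1a. Different clusters made up the macrophage class in healthy and tumour libraries, and their part in these differences was not tested.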

How the results depend on the processing

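The direction of the score difference held in both classes and all 3 contrasts under the settings run. Numbers of called members changed in these ways. Calls over all genes are given above for the fits reported, library size alone and the microglia-like fit without the Csf1-led cluster. They are not given for the other settings, here or above, so a changed count there may belong to the whole test. In microglia-like cells, control against healthy (27), the count was 1 without the Csf1-led cluster and 13 to 27 leaving out 1 library, and Rbpj-deleted against healthy (35) gave 29 to 34 leaving out 1. In monocyte/macrophage-like cells, control against healthy (5) gave 16 with DESeq2, 3 with library size alone, 13 with members included in clustering, 12 with mixed barcodes kept, 21 with no filter on low counts and 0 to 8 leaving out 1 library; Rbpj-deleted against healthy (12) gave 21, 7, 1 with the library split, 26 with no filter and 0 to 15. Between the tumour groups, no filter gave 4 in microglia-like and 1 in monocyte/macrophage-like cells (0 in the fits reported, and 0 leaving out 1), and T-like cells (0) gave 1 with DESeq2, 1 with no filter and 0 to 2. The difference between classes gave 15 with no filter and 1 to 6 leaving out 1 in the Rbpj-deleted contrast (4), and 1 with DESeq2 and 10 with no filter in the control contrast (0).

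The microglia-like score difference for control against healthy (1.54) was 0.92 with log2(CPM + 10), 0.65 without the Csf1-led cluster and 1.34 to 1.75 leaving out 1 library. For Rbpj-deleted against healthy (1.88) it was 1.13 with log2(CPM + 10), 2.18 with log2(CPM + 0.1), 1.78 with only members of at least 10 CPM, 1.84 with mixed barcodes kept, 1.93 with members in clustering, 1.67 without the Csf1-led cluster and 1.86 to 1.89 leaving out 1. For Rbpj-deleted against control (0.33) it was 1.01 without that cluster and 0.13 to 0.54 leaving out 1. In monocyte/macrophage-like cells the ranges leaving out 1 were 0.58 to 1.30, 0.88 to 1.60 and 0.15 to 0.45. The ratio of member counts per microglia-like cell was 2.82 for control and 3.02 for Rbpj-deleted against healthy; it was 4.42 and 3.87 with no thinning, and 3.13 for the latter thinned to 1000 counts. In macrophages (2.22 and 2.66) no thinning gave 4.30 and 3.65. The cause of these changes was not tested.

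Of 1134 values of single called members under the settings, 957 kept their call, 175 lost it and 2 reversed: Ifit1 (-0.02) and Ifit3b (-0.09) in control microglia-like cells without the Csf1-led cluster. With the replicate number as a replicate block the counts were 27, 34 and 0 in microglia-like cells, 5, 11 and 0 in monocyte/macrophage-like cells, in the order control and Rbpj-deleted against healthy and Rbpj-deleted against control, and 0 in T-like cells. Same-numbered libraries did not deviate together in microglia-like cells (correlations -0.062 to 0.001). In monocyte/macrophage-like cells the correlation was 0.286 between healthy brain and Rbpj-deleted tumours. Control tumours correlated at -0.255 with healthy brain and -0.413 with Rbpj-deleted tumours. Whether same-numbered libraries share more than a number was not tested. NK-like and dendritic-like fits were not run, for want of 20 cells in control replicate 2. Replicates differed by more than sampling noise (chi-square 5.416 to 87.653 per gene).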
